A study of Homo sapiens with 6 samples.

Results

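The genes described here are the human translation initiation factors and their direct regulators, taken as every gene symbol that begins with EIF and a digit from 1 to 6. EIF1AY was left out. Of the 23204 gene symbols in the tables, 59 matched in this way, and 57 reached 1 RPKM in at least 1 library and were kept. RPKM is the number of reads per kilobase of transcript and per 1000000 reads of the library. The 2 that were dropped, EIF3IP1 and EIF4E1B, reached at most 0.301 and 0.0232 RPKM, whereas the lowest member kept, EIF5A2, reached 2.35 RPKM. The 57 members were sorted by role into 10 genes of EIF1, EIF1A, EIF5, EIF5A, EIF5B and EIF6, 10 of EIF2 and EIF2B (EIF2A and EIF2D included, which carry the name but are subunits of neither), 14 of EIF3, 12 of EIF4, 4 EIF2 kinases, 3 EIF4E-binding repressors, and 4 Argonautes. The Argonautes entered only because the annotation used still calls AGO1 to AGO4 by the older symbols EIF2C1 to EIF2C4. They act in microRNA silencing and are not initiation factors, so they are given apart at the end.

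RNA was sequenced from HEK293T cells, a human embryonic kidney line that carries the SV40 large T antigen, in 6 groups of 1 library each. The siRNA arm compared 48 h of an siRNA to DDX3X, a DEAD-box RNA helicase implicated in translation initiation, with 48 h of a control siRNA, and no sorting was described for it. The plasmid arm compared transient transfection, with 5 µg of plasmid, of GFP alone or of GFP fused to DDX3X in its wild type, T275M or G302V form, and GFP-positive cells were collected after 32 h. The cells of the plasmid arm kept their own DDX3X, and T275M and G302V are medulloblastoma-associated substitutions in its helicase core. The 2 arms differ in reagent, time and sorting, so these cannot be told apart when the 2 controls are compared. The labels call the cells Neuronal, but neuron markers were low or absent. Of 13, 5 stayed under 0.1 RPKM in every library and 6 reached 1 RPKM in some library, with TUBB3 the highest at up to 9.28 RPKM, and the 13 summed to 16.1 to 23.7 RPKM. The 6 kidney-line markers summed to 294 to 352 RPKM, most of it VIM at 213 to 277 RPKM, while PAX2 and PAX8 reached only 0.693 and 0.0088 RPKM. A plot legend in the study names the mutants as G302V and G325E, whereas the labels name T275M and G302V, and the labels were followed. The treatment protocol of the samples gives differing durations for the plasmid arm, and the 32 h of the study's methods was used.

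DDX3X itself checks the labels for knockdown and overexpression. Its level cannot show which form, wild type, T275M or G302V, a plasmid carried. DDX3X stood at 107 RPKM with the control siRNA and 31.3 RPKM with the DDX3X siRNA, which is 29.3% of control. In the plasmid arm it stood at 119, 2894, 3279 and 1906 RPKM in the GFP, wild type, T275M and G302V libraries. Depth, recovered from the spacing of the RPKM values, ran from about 43720000 reads in the G302V library to 67520000 in the control siRNA library, and reached 180870000 in the DDX3X siRNA library, 2.68 times its control. With 1 library per group there is no replicate error and no test between conditions. Each difference is therefore given as a difference of log2(RPKM + 1), the first library minus the second, with a 95% counting interval where 1 gene is discussed. These intervals cover counting error only and say nothing of the spread between cultures. Because whole populations were measured, fewer cells with an mRNA and less of it per cell cannot be told apart.

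Eukaryotic initiation begins when EIF2 delivers the initiator tRNA to the small ribosomal subunit, together with EIF1, EIF1A, EIF5 and the large EIF3 complex. The cap-binding complex of EIF4E, EIF4G and the helicase EIF4A brings in the mRNA, and after the start codon is found EIF5 and EIF5B help to release the factors and join the large subunit. The pathway has 2 well-known brakes. Kinases of the EIF2AK family phosphorylate the alpha subunit of EIF2 and so block its recycling by EIF2B, and the EIF4E-binding proteins, which are released from EIF4E when mTOR phosphorylates them, keep EIF4E away from EIF4G. Both act on protein, which RNA-seq does not measure.

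Many mRNAs of the translation machinery begin with a C followed by a run of pyrimidines, the 5′ terminal oligopyrimidine (TOP) start that links their translation to mTOR and LARP1. RefSeq promoters on GRCh38.p14 were found for 47 of the 57 members. A C followed by at least 4 pyrimidines stood at an annotated start in 9 of the 47 (19.1%), beside 5.14% of all 27305 genes in the table and 7.70% of the 8969 expressed genes matched by symbol. The 9 were EIF2A, EIF2D, EIF2S3, EIF3D, EIF3F, EIF3K, EIF3M, EIF4A2 and EIF4B. Printed here are 4 of them, because EIF2S3, EIF3F and EIF4A2 are described below and EIF4B has the shortest run, from 5 bases before to 20 bases from the annotated start on, with the pyrimidine run in capitals. They lie at chrX:24054951-24054975 (plus strand), chr11:7987332-7987356 (plus), chr3:186783572-186783596 (plus) and chr12:53006451-53006475 (plus).
EIF2S3: ccttcCTCTTTTggcaacatggcgg
EIF3F: gcctcCTTCTTTCTCgacaagatgg
EIF4A2: gctgtCTTTTCagtcgggcgctgag
EIF4B: cgggtCTTTTgcgttctctttccct
The longest run printed is that of EIF3F. A match describes the letters at an annotated start and does not show that the mRNA starts there in these cells.

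Members spanned a wide range of abundance but most stayed close to their own level. Median RPKM over the 6 libraries ran from 1.83 for EIF5A2 to 1145 for the helicase EIF4A1, with a median of 62.0 over the 57 members. The ratio of a member's highest to its lowest library had a median of 1.27, beside 1.36 for all 13166 genes that reached 1 RPKM. The members were more abundant than the median gene. Among genes with a mean of 10 RPKM or more, the medians lay closer, at 1.24 for 49 members and 1.28 for 6944 genes. With members of every level kept, EIF3 varied least, at a median ratio of 1.16, followed by EIF2 and EIF2B at 1.19 and EIF4 at 1.23. The 10 genes of EIF1, EIF1A, EIF5, EIF5A, EIF5B and EIF6 stood at 1.38, the kinases at 1.42, the repressors at 1.44 and the Argonautes at 1.97. The last 3 sets hold few genes, most of them of low level, and levels between genes are compared here only per length, as RPKM.

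**Figure D1:**
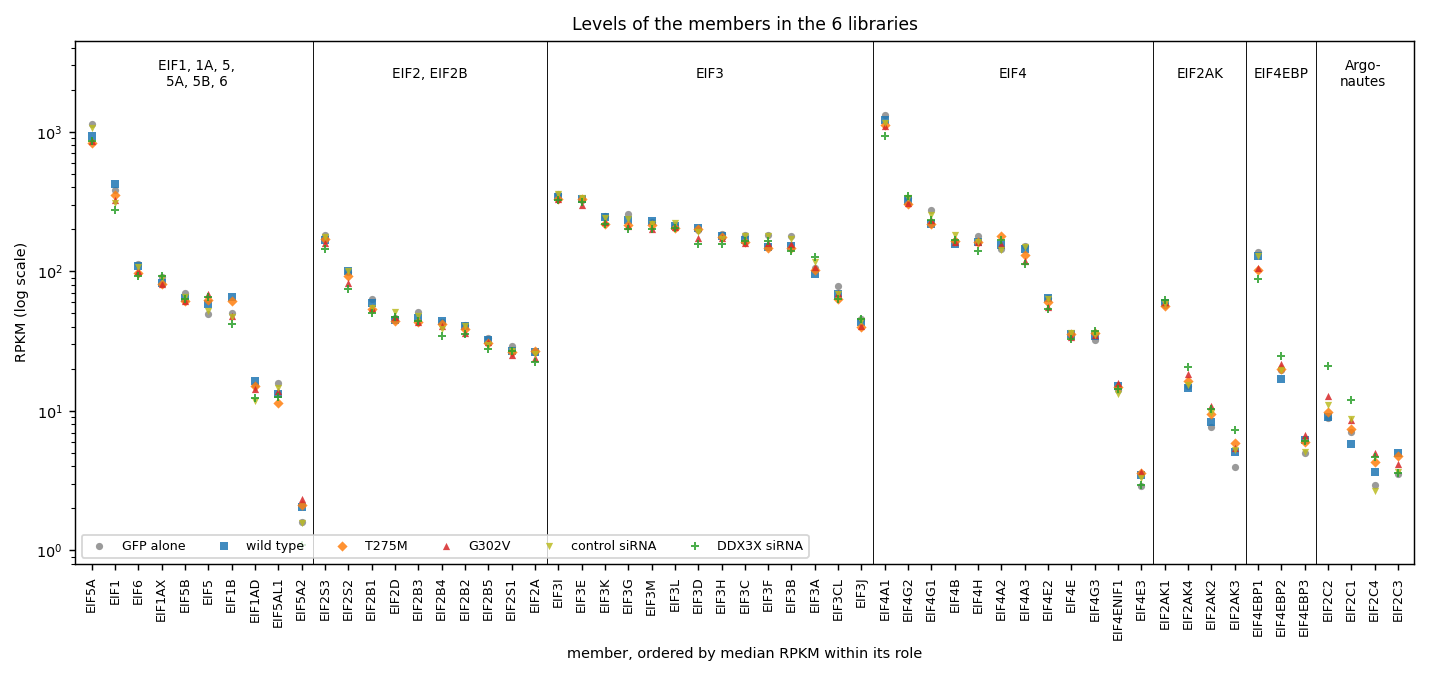
RPKM (log scale) of each of the 57 members in the 6 libraries, with members ordered by median level within their role and 1 marker per library. The libraries overlie each other for most EIF3 and EIF2 genes, and spread apart for EIF4EBP1, the kinase EIF2AK3 and the Argonautes EIF2C1 and EIF2C2.

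A member was called higher at a difference of 0.32 or more on the log2 scale, a 25% gain, and lower at -0.32 or less, a 20% loss. Each count is set beside the share of all tested genes past the same mark. With the DDX3X siRNA, 5 of 57 members (8.77%) were higher, beside 7.52% of all genes, and 3 (5.26%) were lower, beside 7.59%. With wild type DDX3X, 2 members (3.51%) were higher than with GFP alone, beside 9.6% of all genes, and 0 were lower, beside 1.5%. With T275M, 4 members (7.02%) were higher than with GFP alone, beside 12.5%, and 3 (5.26%) lower, beside 3.08%. With G302V, 7 members (12.3%) were higher, beside 8.55%, and 3 (5.26%) lower, beside 3.18%. These 3 comparisons share the GFP library.

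Between the DDX3X proteins, 0 members were higher with T275M than with wild type, beside 1.03% of all genes, and 1 (1.75%) was lower, beside 1.24%. With G302V, 5 members (8.77%) were higher than with wild type, beside 3.59%, and 2 (3.51%) were lower, beside 7.23%. These comparisons share the wild type library. Between the control arms, 1 member was higher with GFP alone than with the control siRNA and 1 was lower (1.75% each), beside 5.73% and 8.41%. The excess over all genes was greatest for G302V above wild type, where the 5 members were 3 Argonautes, EIF2AK2 and EIF4EBP2. With the Argonautes left out, 2 of 53 members (3.77%) were higher there, near the 3.59% of all genes. No member differed 2-fold in any of the 7 comparisons. The shares of all genes that did, in either direction, were 0.11% with the DDX3X siRNA. Against GFP alone they were 0.248% (wild type), 0.372% (T275M) and 0.305% (G302V). Against wild type they were 0.0771% (T275M) and 0.185% (G302V), and they were 0.503% between the controls.

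Below the mark, the median member stood somewhat lower than the median gene in each perturbed library. With the DDX3X siRNA the median log2 difference was -0.12 over the 57 members and -0.02 over all tested genes. Against GFP alone it was -0.04 and 0.05 (wild type), -0.08 and 0.07 (T275M), and -0.12 and 0.03 (G302V). Between the controls it was 0.04 and 0.01. In all, 19 members (33.3%) passed the mark in at least 1 comparison and 38 in none, beside 42.2% of all 13129 genes tested in any of the 7.

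**Figure D2:**
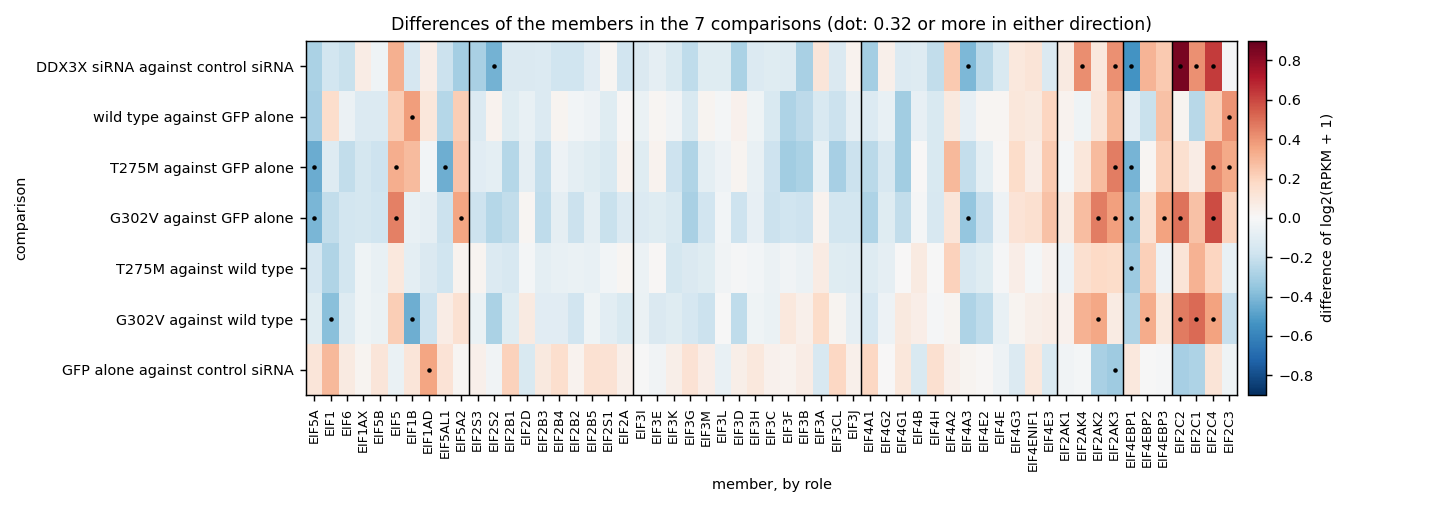
Difference of log2(RPKM + 1) for each member (columns, by role) in the 7 comparisons (rows), in red where the first library was higher and blue where it was lower, with a dot at 0.32 or more in either direction. The block of 14 EIF3 genes is pale and without a dot. The dots gather at EIF4EBP1, the kinase EIF2AK3 and the Argonautes, with EIF2AK2, EIF5, EIF5A, EIF4A3 and EIF1B among the others that hold dots.

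EIF2 and EIF2B, which make up and recharge the initiator tRNA complex, were lower by a little in most members than in the control of the arm. EIF2S1, the alpha subunit that the kinases phosphorylate, stood at 29.3, 27.1, 26.6 and 25.3 RPKM in the GFP, wild type, T275M and G302V libraries, and at 26.7 and 27.0 RPKM in the control and DDX3X siRNA libraries. Values of the 2 arms are given in this order throughout. EIF2S2, the beta subunit, stood at 98.8, 101, 92.9 and 82.7 RPKM in the plasmid arm and at 101 and 74.8 RPKM in the siRNA arm. EIF2S3, the gamma subunit that binds GTP and the tRNA, stood at 183, 167, 170 and 160 RPKM, and at 177 and 144 RPKM. The 3 subunits thus did not move alike in the siRNA arm, where the alpha subunit differed by 0.02 on the log2 scale and the other 2 were lower.

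EIF2S2 (chr20:32676115-32700049 on GRCh37, minus strand) was the member of this set that passed the mark, at -0.43 with the DDX3X siRNA (-0.45 to -0.40). EIF2S3 stood at -0.29 there (-0.31 to -0.28). Per length, EIF2S3 was 6.64 times EIF2S1 with the control siRNA and 5.35 times with the DDX3X siRNA, and 6.17 to 6.41 times in the plasmid arm. The 5 subunits of EIF2B, the exchange factor that restores GTP on EIF2, lay between 27.8 and 63.8 RPKM and were steady.

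EIF2B1, the alpha subunit of EIF2B, stood at 63.8, 59.1, 53.4 and 54.7 RPKM in the plasmid arm and at 55.1 and 50.3 RPKM in the siRNA arm. EIF2B2 stood at 41.3, 40.6, 38.9 and 35.9 RPKM, and at 40.3 and 35.5 RPKM. EIF2B3 stood at 50.9, 46.6, 43.7 and 43.4 RPKM, and at 47.8 and 43.9 RPKM. Each of these was highest in the control of its arm. EIF2B4 stood at 43.3, 44.05, 41.9 and 40.9 RPKM, and at 38.9 and 34.2 RPKM. EIF2B5, the catalytic subunit, stood at 33.1, 32.0, 30.5 and 31.1 RPKM, and at 29.9 and 27.8 RPKM. The ratio of highest to lowest library was 1.16 to 1.29 over the 5.

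EIF2A, a tRNA-binding protein apart from the EIF2 complex, stood at 26.4, 26.6, 26.9 and 24.1 RPKM in the plasmid arm and at 25.5 and 22.5 RPKM in the siRNA arm. EIF2D, which can deliver tRNA without GTP, stood at 46.6, 44.5, 44.004 and 47.2 RPKM, and at 51.3 and 46.9 RPKM. Neither passed the mark in any comparison.

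As a set, the 10 EIF2 and EIF2B genes had a median difference of -0.15 with the DDX3X siRNA, with 9 below 0 and 1 past the mark. Against GFP alone the medians were -0.06 (wild type), -0.09 (T275M) and -0.19 (G302V), with 0 of 10 past the mark in each, and all 10 lay below the all-gene median in each of the 3. Without EIF2A and EIF2D the 4 medians were -0.15, -0.08, -0.11 and -0.20. The medians of the 10 stayed below 0 when the libraries were scaled to a common median and after a correction for row length.

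EIF3, the multi-subunit scaffold of the small ribosomal subunit, held the most even set. EIF3I was its most abundant gene at a median of 337 RPKM and EIF3J, a loosely bound subunit, its least at 43.8 RPKM. The RPKM of EIF3A, the largest subunit, was 106, 96.6, 102 and 108 in the plasmid arm, and 118 and 127 in the siRNA arm. EIF3D, which can bind a cap itself, stood at 199, 205, 203 and 174 RPKM, and at 191 and 157 RPKM. EIF3A was thus highest with the DDX3X siRNA, whereas EIF3D was lowest there.

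EIF3F, whose TOP start is printed above, stood at 182, 150, 147 and 161 RPKM in the plasmid arm and at 179 and 165 RPKM in the siRNA arm. EIF3B stood at 180, 153, 147 and 158 RPKM, and at 171 and 140 RPKM. Both were therefore highest in the 2 control libraries. The other 10 EIF3 genes lay between 39.9 RPKM, the lowest value of EIF3J, and 358 RPKM, the highest of EIF3I, with ratios of highest to lowest library from 1.08 for EIF3L to 1.28 for EIF3G. EIF3L moved least of all 57 members, from 206 to 223 RPKM.

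None of the 14 EIF3 genes passed the mark in any of the 7 comparisons. Median differences were -0.12 with the DDX3X siRNA, with 12 of 14 below 0, and -0.07, -0.15 and -0.16 with wild type, T275M and G302V against GFP alone, with 11, 12 and 13 of 14 below 0. Relative to the all-gene median, 14, 14 and 13 of 14 lay lower in those 3. Scaling carried EIF3B, EIF3CL, EIF3F and EIF3G past the mark lower with T275M and EIF3F with wild type. Summed over its genes, EIF3 came to 2792, 2657, 2557 and 2527 RPKM in the plasmid arm and to 2733 and 2492 RPKM in the siRNA arm. EIF3C and EIF3CL are copies whose coding sequences had no difference over 2742 aligned bases, and the row named EIF3C lies at the EIF3CL locus on chromosome 16. Reads of these 2 genes cannot be told apart, and without EIF3CL the EIF3 medians were -0.11, -0.06, -0.11 and -0.16 in the same order.

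Among EIF4 genes, the helicase paralogs differed in direction. EIF4A1 (chr17:7476142-7482324, plus strand), the helicase of the cap-binding complex, stood at 1327, 1215, 1124 and 1096 RPKM in the plasmid arm, and at 1165 and 941 RPKM in the siRNA arm. EIF4A2 (chr3:186500994-186507686, plus strand), its paralog, stood at 146, 155, 179 and 157 RPKM, and at 141 and 167 RPKM. In both arms EIF4A1 was highest in the control library, and EIF4A2 was lowest there. Per length, EIF4A1 was 9.09, 7.85, 6.27 and 6.97 times EIF4A2 in the plasmid arm, and 8.24 and 5.65 times in the siRNA arm. Their log2 differences were -0.31 (-0.32 to -0.30) and 0.23 (0.21 to 0.26) with the DDX3X siRNA, -0.24 and 0.29 with T275M, and -0.28 and 0.11 with G302V, so neither passed the mark alone. The coding sequences differed at 282 of 1221 aligned bases and shared no stretch of 50 bases.

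EIF4A3, the related helicase of the exon junction complex that acts in the nucleus, passed the mark. It stood at 152, 145, 131 and 119 RPKM in the plasmid arm and at 149 and 112 RPKM in the siRNA arm, lowest in both arms with G302V and the DDX3X siRNA. Its differences were -0.40 (-0.43 to -0.38) with the DDX3X siRNA and -0.35 (-0.38 to -0.31) with G302V, and they were -0.31 and -0.30 after the row-length correction, just short of the mark.

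The cap-binding and scaffold genes were steadier. EIF4E, the cap-binding protein, stood at 35.196, 35.666, 35.465 and 34.004 RPKM in the plasmid arm and at 36.3 and 32.9 RPKM in the siRNA arm. EIF4G1, the main scaffold, stood at 274, 220, 220 and 235 RPKM in the plasmid arm and at 255 and 234 RPKM in the siRNA arm, and so was highest in the 2 controls. It lay at -0.31 with both wild type (-0.33 to -0.30) and T275M (-0.33 to -0.30), just short of the mark, and passed it under scaling. EIF4G2, a related protein that does not bind EIF4E, stood at 335, 320, 303 and 309 RPKM, and at 334 and 346 RPKM. EIF4G3 stood at 32.3, 34.7, 36.2 and 35.2 RPKM, and at 35.3 and 37.7 RPKM, and within each arm was lowest where EIF4G1 was highest. The median of the 12 EIF4 genes was -0.13 in the siRNA arm and, against GFP alone, -0.02 (wild type), -0.04 (T275M) and -0.08 (G302V), with 1, 0, 0 and 1 past the mark lower and 0 higher in each.

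EIF5A (chr17:7210318-7215782, plus strand), the hypusine-bearing factor that also helps elongation through stalling sequences, was the second most abundant member. Its RPKM was 1144, 929, 839 and 861 in the plasmid arm, and 1058 and 867 in the siRNA arm. It was highest in the 2 controls. The differences from the controls were -0.30 (-0.31 to -0.29) with wild type, -0.45 (-0.46 to -0.43) with T275M, -0.41 (-0.43 to -0.39) with G302V and -0.29 (-0.30 to -0.28) with the DDX3X siRNA. Those of T275M and G302V passed the mark under each alternative that kept the mark.

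EIF5AL1 (chr10:81272289-81276196, plus strand), a coding copy of EIF5A, also passed the mark lower with T275M, at -0.44 (-0.51 to -0.36). It stood at 15.9, 13.1, 11.5 and 13.8 RPKM in the plasmid arm and at 14.5 and 12.6 RPKM in the siRNA arm. EIF5A was 62.4 to 73.0 times as abundant per length in the 6 libraries. Their coding sequences differed at 5 of 465 bases, and 66.6% of the 50-base windows of EIF5AL1 occur unchanged in EIF5A, so how reads were divided between them is uncertain. Coding bases 104 to 133 of each, from GENCODE transcripts on GRCh37, show how close they are, with the 3 differing bases in capitals.
EIF5A: gcCggccatgtaagatcgtCgagatgtctA
EIF5AL1: gcTggccatgtaagatcgtGgagatgtctG
EIF5A2, a more distant paralog of low level, stood at 1.61, 2.04, 2.11 and 2.35 RPKM in the plasmid arm and at 1.58 and 1.09 RPKM in the siRNA arm. It was higher with G302V than with GFP alone, at 0.36 (0.24 to 0.47), and lay at -0.31 with the DDX3X siRNA.

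EIF5 (chr14:103799881-103811362, plus strand), which activates the GTPase of EIF2 at the start codon and is not a paralog of EIF5A, lay on the other side. Its RPKM was 49.9, 58.7, 62.7 and 68.8 in the plasmid arm and 52.0 and 65.1 in the siRNA arm, lowest in both controls. The differences were 0.23 (0.20 to 0.26), 0.32 (0.29 to 0.36) and 0.45 (0.42 to 0.48) against GFP alone, and 0.32 (0.30 to 0.34) in the siRNA arm. The difference with T275M was just past the mark and that with the DDX3X siRNA just inside it, so those 2 cannot be set apart. With G302V it stayed past the mark under each alternative that kept it.

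EIF1 and EIF1B, near relatives that guard the choice of start codon, were highest with wild type DDX3X. EIF1 stood at 380, 424, 351 and 327 RPKM in the plasmid arm and at 311 and 277 RPKM in the siRNA arm. EIF1B stood at 50.6, 65.8, 61.8 and 48.2 RPKM, and at 46.9 and 42.1 RPKM. With G302V against wild type, EIF1 lay at -0.37 (-0.40 to -0.35) and EIF1B at -0.44 (-0.51 to -0.37), and EIF1B lay at 0.37 (0.31 to 0.44) with wild type against GFP alone. The last was inside the mark under scaling. For G302V against wild type, the row-length correction took EIF1 to -0.27, inside the mark, and left EIF1B past it at -0.34. Their best-aligned reading frames differed at 61 of 342 bases and shared no stretch of 50 bases.

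The remaining genes of this set stayed within narrower bounds. EIF6, which keeps the ribosomal subunits apart, spanned 93.3 to 114 RPKM, EIF1AX, a scanning factor, 81.0 to 93.1 RPKM, and EIF5B, which joins the subunits, 61.7 to 70.2 RPKM. EIF1AD, whose product resembles EIF1A, stood at 15.3, 16.5, 15.03 and 14.4 RPKM in the plasmid arm and at 11.8 and 12.3 RPKM in the siRNA arm. It was the member higher with GFP alone than with the control siRNA, a difference of 0.35 (0.28 to 0.43). The median of the 10 genes was -0.16 with the DDX3X siRNA and -0.14 and -0.16 with T275M and G302V. It was 0.02 with wild type, and below 0 there with scaling or the row-length correction.

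**Figure D3:**
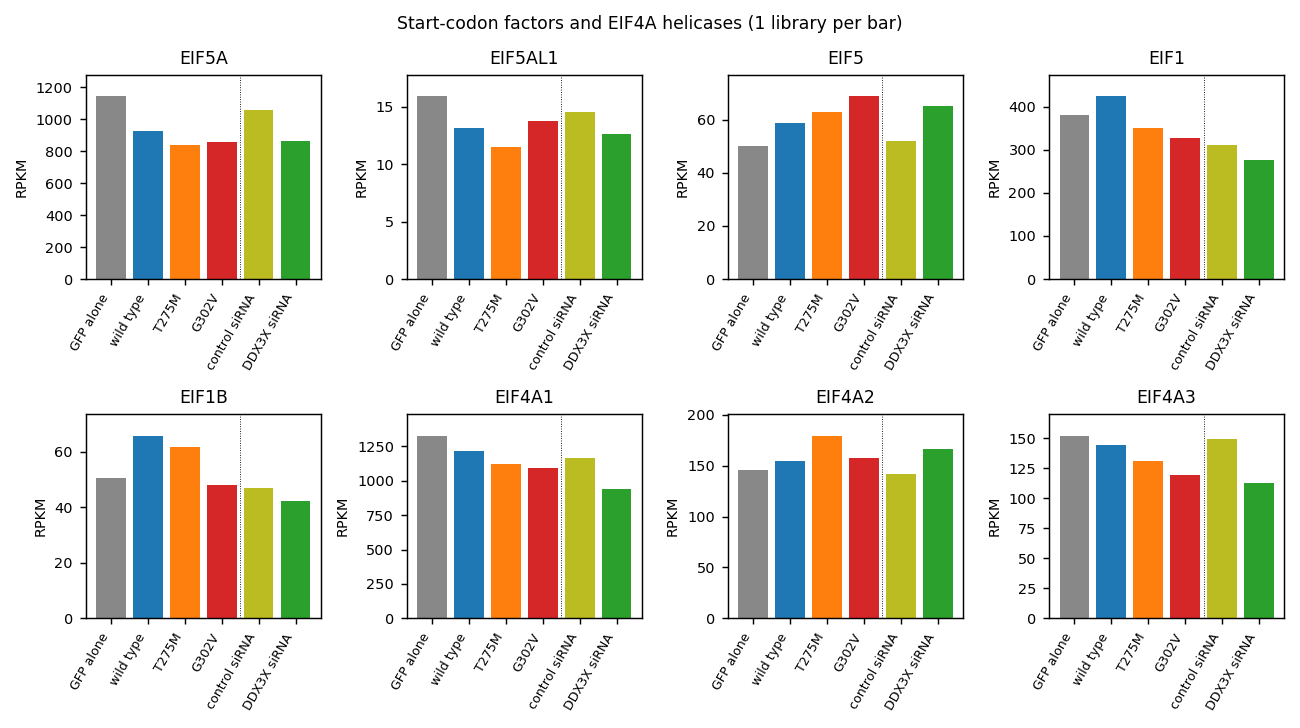
RPKM of EIF5A, EIF5AL1, EIF5, EIF1, EIF1B and the EIF4A helicases, 1 library per bar from 0, with the plasmid arm left and the siRNA arm right of the dotted line. EIF5A and EIF4A1 are highest in the control of each arm, whereas EIF5 and EIF4A2 are lowest there.

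The EIF2 kinases sense different stresses and lay higher as a set in the mutant and DDX3X siRNA libraries. EIF2AK1, the heme-regulated kinase, was the most abundant and the steadiest, at 57.58, 58.93, 56.97 and 60.54 RPKM in the plasmid arm and 58.7 and 62.3 RPKM in the siRNA arm. EIF2AK4 (GCN2), which senses amino acid starvation, stood at 15.1, 14.6, 16.3 and 18.4 RPKM, and at 15.3 and 20.7 RPKM. EIF2AK2 (PKR), which senses double-stranded RNA, stood at 7.64, 8.32, 9.55 and 10.9 RPKM, and at 9.59 and 10.3 RPKM. EIF2AK3 (PERK), the kinase of the endoplasmic reticulum, was the scarcest, at 3.99, 5.12, 5.85 and 5.43 RPKM, and at 5.23 and 7.30 RPKM. Beside EIF2AK1, each of the other 3 was higher in the mutant libraries than with GFP alone and higher with the DDX3X siRNA than with its control, by amounts that reached the mark in some of these pairs.

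With the DDX3X siRNA, EIF2AK3 (chr2:88856259-88991036, minus strand) lay at 0.41 (0.35 to 0.48) and EIF2AK4 (chr15:40226316-40327792, plus strand) at 0.41 (0.37 to 0.45), whereas EIF2AK2 lay at 0.10 (0.04 to 0.16). Against GFP alone, EIF2AK3 lay at 0.46 (0.36 to 0.56) with T275M and 0.37 (0.27 to 0.47) with G302V, and at 0.30 (0.20 to 0.39) with wild type, short of the mark. EIF2AK2 lay at 0.46 (0.37 to 0.55) with G302V against GFP alone and at 0.35 (0.26 to 0.43) against wild type. EIF2AK3 was itself lower with GFP alone than with the control siRNA, at -0.32 (-0.41 to -0.23), so the GFP library was the lowest of the 6 for this gene, and the wild type, T275M, G302V and control siRNA libraries lay together between 5.12 and 5.85 RPKM.

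The set's medians were 0.26 with the DDX3X siRNA, 0.20 with T275M and 0.32 with G302V, with 2, 1 and 2 of 4 genes past the mark higher and 0 lower. With wild type the median was 0.07, with 0 past the mark, and it changed sign to -0.01 after the row-length correction. The same correction took the median to 0.08 with T275M, with 2 of 4 genes below 0. It was then 0.22 with G302V, with 1 of 4 below 0, and 0.23 with the DDX3X siRNA, with 0 below 0. Each call of EIF2AK2, EIF2AK3 and EIF2AK4 was lost with a pseudocount of 10, and EIF2AK3 lies under 10 RPKM in every library. EIF2AK3 was also inside the mark after the row-length correction with G302V against GFP alone, at 0.28, and with GFP alone against the control siRNA.

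The EIF4E-binding repressors moved apart from each other. EIF4EBP1, the most abundant, stood at 138, 129, 103 and 107 RPKM in the plasmid arm, and at 129 and 88.5 RPKM in the siRNA arm. The GFP, wild type and control siRNA libraries lay at the top, and both mutants and the DDX3X siRNA below them. Its differences were -0.54 (-0.58 to -0.49) with the DDX3X siRNA, the lowest of the 57 members in that comparison, -0.42 (-0.48 to -0.36) with T275M and -0.37 (-0.42 to -0.31) with G302V against GFP alone, and -0.09 with wild type. Against wild type, T275M lay at -0.33 (-0.38 to -0.27) and G302V at -0.27. EIF4EBP1 has one of the shortest rows among the members, 859 bases, and the median over all genes was lower for short rows in the same comparisons. After the row-length correction the values were -0.47, -0.32 and -0.24, of which the first stayed past the mark.

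EIF4EBP2, which has the longest row at 7531 bases, stood at 19.7, 17.0, 19.9 and 21.8 RPKM in the plasmid arm and at 19.7 and 24.6 RPKM in the siRNA arm. It was lowest with wild type, and passed the mark with G302V against wild type at 0.34 (0.29 to 0.38). That difference was inside the mark after the row-length correction, at 0.20, and with a pseudocount of 10, at 0.23. With the DDX3X siRNA EIF4EBP2 lay at 0.30 (0.27 to 0.33), and reached the mark under scaling. EIF4EBP3 stood at 5.02, 6.21, 5.99 and 6.74 RPKM, and at 5.05 and 6.13 RPKM, and its difference of 0.36 with G302V against GFP alone rests on 152 and 142 reads, with an interval of 0.07 to 0.65. Per length, EIF4EBP1 was 6.98, 7.59, 5.15 and 4.90 times EIF4EBP2 in the plasmid arm, and 6.53 and 3.60 times in the siRNA arm. It was 3.91, 3.62, 2.89 and 3.13 times EIF4E, and 3.54 and 2.69 times. The sum of the 3 repressors came to 162, 152, 129 and 135 RPKM, and to 154 and 119 RPKM, and so followed EIF4EBP1.

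**Figure D4:**
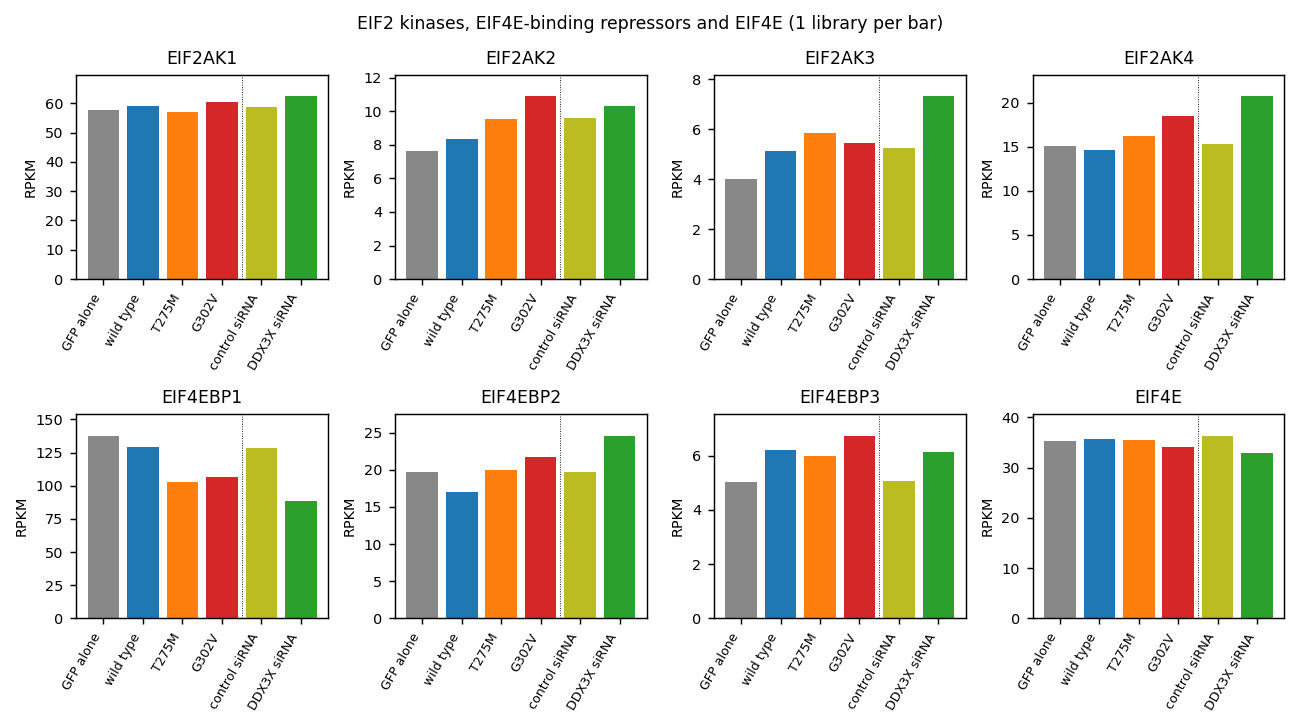
RPKM of the 4 EIF2 kinases, the 3 EIF4E-binding repressors and EIF4E, 1 library per bar from 0, with the plasmid arm left and the siRNA arm right of the dotted line. EIF4EBP1 is lowest with the DDX3X siRNA and lower with both mutants than with GFP alone or wild type, EIF2AK3 and EIF2AK4 are highest with the DDX3X siRNA, and EIF4E spans 32.9 to 36.3 RPKM.

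Genes that work with these factors were read from lists. The 21 partners of initiation in the tables include poly(A)-binding proteins, EIF4A inhibitor PDCD4 and the EIF4E kinases. Of these, 0 passed the mark in any of the 7 comparisons, beside 42.2% of all 13129 genes tested. PAIP2 came nearest, at 0.316 with T275M against GFP alone. After the row-length correction, 1 was higher with the DDX3X siRNA and 1 with G302V against wild type. With G302V against GFP alone, 1 was then higher and 1 lower. Among 11 genes of the EIF2 kinase pathway, the DDX3X siRNA gave 2 higher, PRKRA at 0.42 and DNAJC3 at 0.37, and 4 lower, beside 7.52% and 7.59% of all genes. The 4 were ASNS, asparagine synthetase, at -1.24, ATF4, the transcription factor whose translation EIF2 phosphorylation favours, at -0.74, TRIB3 at -0.40 and DDIT3 at -0.36. The row-length correction left 1 of the 11 higher and 3 lower. ATF4 stood at 453 RPKM with the control siRNA and 270 RPKM with the DDX3X siRNA, and at 487, 480, 415 and 380 RPKM in the plasmid arm. The RNA of EIF2AK3 and EIF2AK4 was thus higher in the library where ATF4 and ASNS were lower.

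With wild type against GFP alone, 3 genes of that list were higher, DDIT3 at 0.75, PPP1R15A at 0.70 and TRIB3 at 0.33, and 0 lower, beside 9.6% and 1.5% of all genes. With T275M, PPP1R15A at 0.72 and DDIT3 at 0.46 were higher and 0 were lower, beside 12.5% and 3.08%. With G302V, 0 were higher, and ASNS at -0.43 and ATF4 at -0.36 were lower, beside 8.55% and 3.18%. With G302V against wild type, 0 were higher and 4 were lower, beside 3.59% and 7.23%: ASNS at -0.73, DDIT3 at -0.59, PPP1R15A at -0.53 and ATF4 at -0.34. Against GFP alone, the row-length correction left 2 higher with wild type, 2 higher with T275M and 1 lower with G302V. It left 3 lower with G302V against wild type. PPP1R15A, the phosphatase subunit that reverses EIF2 phosphorylation, stood at 10.0, 16.8, 17.1 and 11.3 RPKM in the plasmid arm. Wild type and T275M thus stood together above GFP alone and G302V. The 2 controls differed as well. PPP1R15A was higher with GFP alone than with the control siRNA, at 0.54, and ASNS was lower, at -0.45. The shares of all genes past the mark there were 5.73% higher and 8.41% lower. In the mTOR list of 10 genes, 0 or 1 were higher and 0 to 2 lower in each comparison, against the same all-gene shares. MTOR was higher with the DDX3X siRNA (0.39), and with G302V against GFP alone (0.33) and wild type (0.43). The row-length correction left 0 of the 10 genes higher in each of these comparisons, so MTOR was then inside the mark. RPS6KB1 and DEPTOR were lower with the DDX3X siRNA, each at -0.46, and AKT1S1 was lower with T275M against GFP alone, at -0.35.

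The 9 members with a TOP start did not stand apart from the other 38 members with a promoter in the table. Their median differences were -0.13 and -0.11 with the DDX3X siRNA, and against GFP alone -0.03 and -0.05 (wild type), -0.08 and -0.10 (T275M), and -0.14 and -0.12 (G302V). EIF4A2 was the highest of the 9 with the DDX3X siRNA and with T275M, and EIF3F the lowest with wild type and T275M, although both starts hold the same kind of run. The letters TGATGNAA, bound by ATF4 with its partners, were looked for on both strands of the 300-base promoters. They stood in 1 of 47 members, EIF4E3 (2.13%), beside 4.46% of all genes and 2.64% of the expressed genes. EIF4EBP1, EIF2S2 and EIF3A were among the members without a promoter in the table. They were therefore searched neither for these letters nor for a TOP start.

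The Argonautes, named EIF2C in the tables, held 11 of the 37 calls among the members, all higher. EIF2C2 (AGO2), the slicing Argonaute, stood at 8.86, 9.02, 9.88 and 12.8 RPKM in the plasmid arm and at 11.1 and 20.9 RPKM in the siRNA arm. Its difference of 0.85 (0.79 to 0.91) with the DDX3X siRNA was the greatest of any member. EIF2C1 (AGO1) stood at 7.02, 5.76, 7.38 and 8.64 RPKM, and at 8.73 and 11.96 RPKM. Both were highest with the DDX3X siRNA. EIF2C4 (AGO4) stood at 2.96, 3.63, 4.30 and 4.96 RPKM, and at 2.65 and 4.65 RPKM. EIF2C3 (AGO3) stood at 3.51, 4.98, 4.72 and 4.18 RPKM, and at 3.63 and 3.58 RPKM. It was the Argonaute not past the mark in the siRNA arm, and was higher with wild type, at 0.41 (0.30 to 0.52), and with T275M, at 0.34 (0.23 to 0.46), than with GFP alone, the latter inside the mark after the row-length correction. The same correction took EIF2C1 inside the mark with the DDX3X siRNA, at 0.27. It did so for EIF2C4 with T275M against GFP alone, at 0.26, and with G302V against wild type, at 0.22. With the 4 Argonautes left out, 2 of 53 members (3.77%) were higher and 3 (5.66%) lower in the siRNA arm, beside 7.52% and 7.59% of all genes. Against GFP alone, 1 (1.89%) was higher and 0 lower with wild type, beside 9.6% and 1.5%. The counts were 2 (3.77%) and 3 (5.66%) with T275M, beside 12.5% and 3.08%, and 5 (9.43%) and 3 (5.66%) with G302V, beside 8.55% and 3.18%. For G302V against wild type they were 2 (3.77%) and 2 (3.77%), beside 3.59% and 7.23%.

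The length of a gene's row moved with these differences, in all genes as in the members. Over 5 equal bins of row length, the median difference of all genes went from -0.09 in the shortest to 0.10 in the longest with the DDX3X siRNA, from -0.07 to 0.15 with T275M and from -0.10 to 0.16 with G302V against GFP alone. It went from 0.00 to 0.07 with wild type. The median row was 1483 bases in EIF3, 2344.5 in EIF2 and EIF2B, 4556.5 in the kinases and 5352.5 in the Argonautes, so the first pair of sets, which lay lower, have shorter rows than the last pair, which lay higher. After the median of each of 10 bins of row length was taken off, the medians with the DDX3X siRNA were -0.04 for EIF3, -0.07 for EIF2 and EIF2B, 0.23 for the kinases and 0.38 for the Argonautes, and 22 of the 37 calls stayed past the mark. With T275M and G302V against GFP alone they were -0.16 and -0.09 for EIF3, and -0.17 and -0.19 for EIF2 and EIF2B. They were 0.08 and 0.22 for the kinases, and 0.14 and 0.26 for the Argonautes. The part of row length, depth or RNA quality in the differences was not tested.

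**Figure D5:**
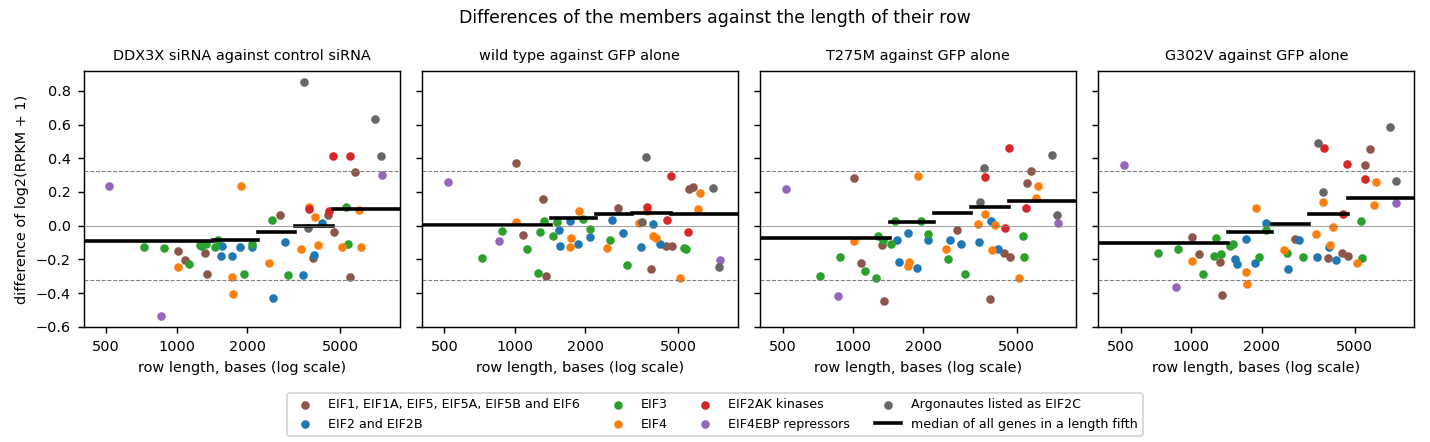
Difference of log2(RPKM + 1) of each member against the length of its row (log scale), in the 4 comparisons with the control of the arm, coloured by role, with black bars for the median of all genes in each of 5 length bins and dashed lines at 0.32 and -0.32. The bars climb from left to right with the DDX3X siRNA, T275M and G302V, and most EIF3 and EIF2 genes lie at or under them.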

How the data were processed

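Total RNA of 6 HEK293T cultures was sequenced on an Illumina HiSeq after TruSeq preparation. Per the study's methods, the authors trimmed reads with cutadapt, aligned them with BWA 0.5.5 to NCBI Build 37 (hg19), RefSeq transcripts, exon junctions and AceView, kept the best alignment, removed duplicates, and divided counts by length and depth. The deposited unit is RPKM per the file headers, called FPKM in the methods. The 105 rows under member symbols were reduced to the row of highest mean RPKM per symbol, and rows of 1 symbol differed by at most 0.12 in log2 difference. Reads per row were recovered from the RPKM steps (100% of the low rows checked lay within 0.1 of a whole read). The fewest reads behind a member's value were 142, for EIF4EBP3 with GFP alone.

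A gene entered a comparison at 1 RPKM and 10 reads in at least 1 of its 2 libraries. Differences are of log2(RPKM + 1), which understates changes of low genes, and 95% intervals are exact Clopper-Pearson intervals on the recovered reads. With 1 library per group, no p-value was computed and no replicate could be compared. The members and gene lists were chosen with earlier results of these data known. Values in every library were given for each member past the mark of 0.32 (log2) in any comparison, for EIF2S1 to EIF2S3, EIF2B1 to EIF2B5, EIF4A1, EIF4A2, EIF4E, EIF4G1 to EIF4G3, the kinases, the repressors and EIF5A, with EIF3 genes by their joint range. Other genes are named where a listed partner or pathway gene passed the mark. EIF2A, EIF2D, EIF3A, EIF3B, EIF3D and EIF3F were picked for full values after their values were seen. Alternatives were the longest row or the sum of rows per symbol, median-ratio scaling, a 1.5-fold threshold, a pseudocount of 0.1 or 10, and a filter of 10 RPKM or of 1 read. A correction by the median of each of 10 bins of row length was added after seeing the data. Gene positions are from GENCODE version 44 mapped to GRCh37, and the row of 56 of 57 members overlapped its gene. Coding sequences were the longest reading frames of its transcripts, aligned with Biopython 1.88. The scripts (Python 3.11.15, pandas 2.3.3, scipy 1.17.1) were tested on simulated data. The study's peak list was not used here.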

Additional observations from a re-analysis of the deposited data

How the results depend on the processing

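No paired analysis was possible because each group holds 1 library, and for the same reason no library could be left out. No called difference changed direction under any alternative. Of 37 calls, 12 stayed past the mark of 0.32 under every alternative that kept the threshold except the row-length correction, and 7 under that as well: EIF4EBP1, EIF2S2 and EIF2C2 with the DDX3X siRNA, EIF5A with T275M and G302V and EIF5 with G302V against GFP alone, and EIF1B with G302V against wild type. The sum of rows, the longest row and no filter beyond 1 read kept all 37. Counts of members that moved by over 1.5 times follow. A pseudocount of 10 left 1 higher with the DDX3X siRNA and, against GFP alone, 1 (wild type), 0 (T275M) and 1 (G302V), then 0 lower for T275M and 0 higher for G302V against wild type, and 0 higher and 0 lower between the controls. A pseudocount of 0.1 gave 4 higher with wild type, 1 higher for T275M against wild type and 3 lower between the controls. A minimum of 10 RPKM left 3 higher with the DDX3X siRNA, 1 (wild type), 1 (T275M) and 3 (G302V) against GFP alone, 3 for G302V against wild type, and 0 lower between the controls. Scaling gave 1 higher and 3 lower with wild type, 2 higher and 8 lower with T275M, and 0 lower between the controls. At 1.5-fold, 2 were higher and 0 lower with the DDX3X siRNA, 1 higher and 0 lower with G302V against GFP alone, and 0 in either direction in the other comparisons. The row-length correction gave 2 lower with wild type, 2 higher and 6 lower with T275M, 0 lower for T275M and 3 higher and 1 lower for G302V against wild type, and 0 lower between the controls. The cause of these shifts was not tested. The depth limits EIF4EBP3, at 142 to 572 reads, most. The spread between cultures is unknown.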
